A study of Rattus norvegicus with 8 samples.

Results

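The 34 genes described here encode collagen chains and the proteins that modify and process them, among 14506 genes measured in the ductus arteriosus (DA) and aorta of newborn rats. They are all genes of the array annotation whose symbol has the form of a collagen chain gene (25 genes, such as Col1a1 and Col8a1), together with the prolyl 4-hydroxylase genes P4ha1, P4ha2 and P4ha3, the lysyl hydroxylase genes Plod1, Plod2 and Plod3, the chaperone gene Serpinh1, and the procollagen processing genes Pcolce and Bmp1. Pcolce2, Col4a2, Col8a2, the main chains of type VI collagen (Col6a1, Col6a2 and Col6a3), Col15a1 and Col18a1 are not analysed here. Collagen VI is represented by Col6a4 only, whose value is that of the probe set with the highest mean of 3.

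The 4 groups were DA and aorta of the inbred strains Brown-Norway (BN) and Fischer344 (F344), each with 2 arrays, taken from full-term neonates 1 h after birth. BN rats have been used as a model in which the ductus closes incompletely. The labels name no transgene or agent for either strain. RNA was extracted from pooled tissues, with the number of animals in a pool not given in the sources used here. Nothing in the labels says that replicates came from separate pools of animals, so the p-values reflect no more than the spread of these samples, which may be technical. In such tissue RNA, fewer cells of a type and less RNA per cell cannot be told apart.

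Collagens are secreted proteins whose chains wind into triple helices. Fibrillar collagens, of which types I and III are the bulk of the vessel wall and types V and XI set fibril diameter, give the wall its tensile strength. Fibril-associated collagens decorate those fibrils, type IV builds the basement membrane around smooth muscle and endothelial cells, and type VIII is a short-chain network collagen made by vascular cells. Before secretion the chains are hydroxylated on proline and lysine, folded with the help of Serpinh1 (HSP47), and afterwards trimmed by Bmp1, whose activity Pcolce enhances.

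Values are log2 values made by RMA (robust multi-array average), so 1 unit is a 2-fold difference, and levels of different genes are not compared because probes differ in brightness. Array medians over all probe sets lay between 6.96 and 7.05. Among the members, 6 (Col10a1, Col13a1, Col17a1, Col4a3, Col4a4 and Col6a4) had group means below the median of all gene values, 7.48, in all 4 groups. The BN DA arrays differed most from each other: the standard deviation of the difference between replicates over all genes was 0.349, against 0.196 to 0.258 in the other groups, and over the 34 members it was 0.273 in BN DA, 0.262 in BN aorta, 0.173 in F344 DA and 0.122 in F344 aorta. Smooth muscle markers, which define the labelled tissue, had array means from 11.27 to 11.83.

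Some collagen genes, mostly fibrillar and fibril-associated chains and Col8a1, were lower in DA than in aorta, 20 of the 34 members were not called in the average over strains, and no member was called higher in DA. Averaged over strains, 14 of the 34 members were called lower in DA and 0 higher (limma, Benjamini-Hochberg adjusted p over all genes under 0.05), which is 41.2% of the members, against 6.47% of all genes called lower, 10.1% called higher and 16.6% in either direction. The 14 were 7 of 10 fibrillar chains, 3 of 5 fibril-associated chains, Col8a1, P4ha2, Plod2 and Serpinh1. The median log2 difference of the 34 members was -0.28 and that of all genes -0.02, and 32 of the 34 were below 0, against 54.4% of all genes. On 14 members every DA array lay below every aorta array, and on 0 every DA array lay above, against 8.38% and 8.03% of all genes.

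Within F344, 8 members were called lower in DA and 0 higher (5.12% and 8.87% of all genes, 14% in either direction). They were Col8a1, Col11a1, Col5a2, Col3a1, Col14a1, P4ha2, Col5a1 and Col27a1. At an unadjusted p under 0.05, 13 of the 34 members were lower in F344 DA and 0 higher, beside 4273 of all 14506 genes in either direction. Within BN, 8 were called lower and 0 higher (0.82% and 0.986% of all genes, 1.81% in either direction). They were Col8a1, Col11a1, Col3a1, Col14a1, Col1a2, P4ha2, Col5a2 and Pcolce. At an unadjusted p under 0.05, 18 of the 34 members were lower in BN DA and 0 higher, beside 2026 of all 14506 genes in either direction. Within F344 both DA arrays lay below both aorta arrays on 23 members and above on 3 (37.8% and 29.6% of all genes), and within BN on 22 and 0 (18.5% and 18.7%). The lists of calls share 6 genes, which are 75.0% of either list. The strains share no arrays, but a gene's spread was estimated from all 8 arrays, so a gene of low spread is called more easily in both. Members not called had log2 differences from -0.47 to 0.26 in F344 and from -0.64 to 0.13 in BN.

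The calls in single strains depended on the arrays used. In F344 the count of 8 was 4 without DA replicate 1, 3 without DA replicate 2, 4 without aorta replicate 1 and 3 without aorta replicate 2, and Col8a1, Col11a1 and Col5a2 stayed called in all 20 alternative settings. In BN the count of 8 was 4 without DA replicate 1, 0 without aorta replicate 1, 3 without aorta replicate 2, 3 without any single F344 array and 0 in a fit with the 4 BN arrays alone. Averaged over strains it was 9 without F344 aorta replicate 2. By gene, the F344 calls of P4ha2, Col5a1 and Col27a1 were lost without any 1 of the F344 arrays, that of Col14a1 without DA replicate 2 or either aorta array, and that of Col3a1 without either DA array or aorta replicate 2. The BN calls of Col8a1, Col11a1 and Col3a1 were lost without BN aorta replicate 1, those of Col14a1, Col1a2, P4ha2 and Col5a2 without any array but BN DA replicate 2, and that of Pcolce without any array but BN DA replicate 1. Centring each array on its brighter genes, which moved the median difference of all genes from -0.04 to 0.16 in F344, left 4 members called in F344, 3 in BN and 9 in the average, with 0 called higher in each.

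**Figure D1:**
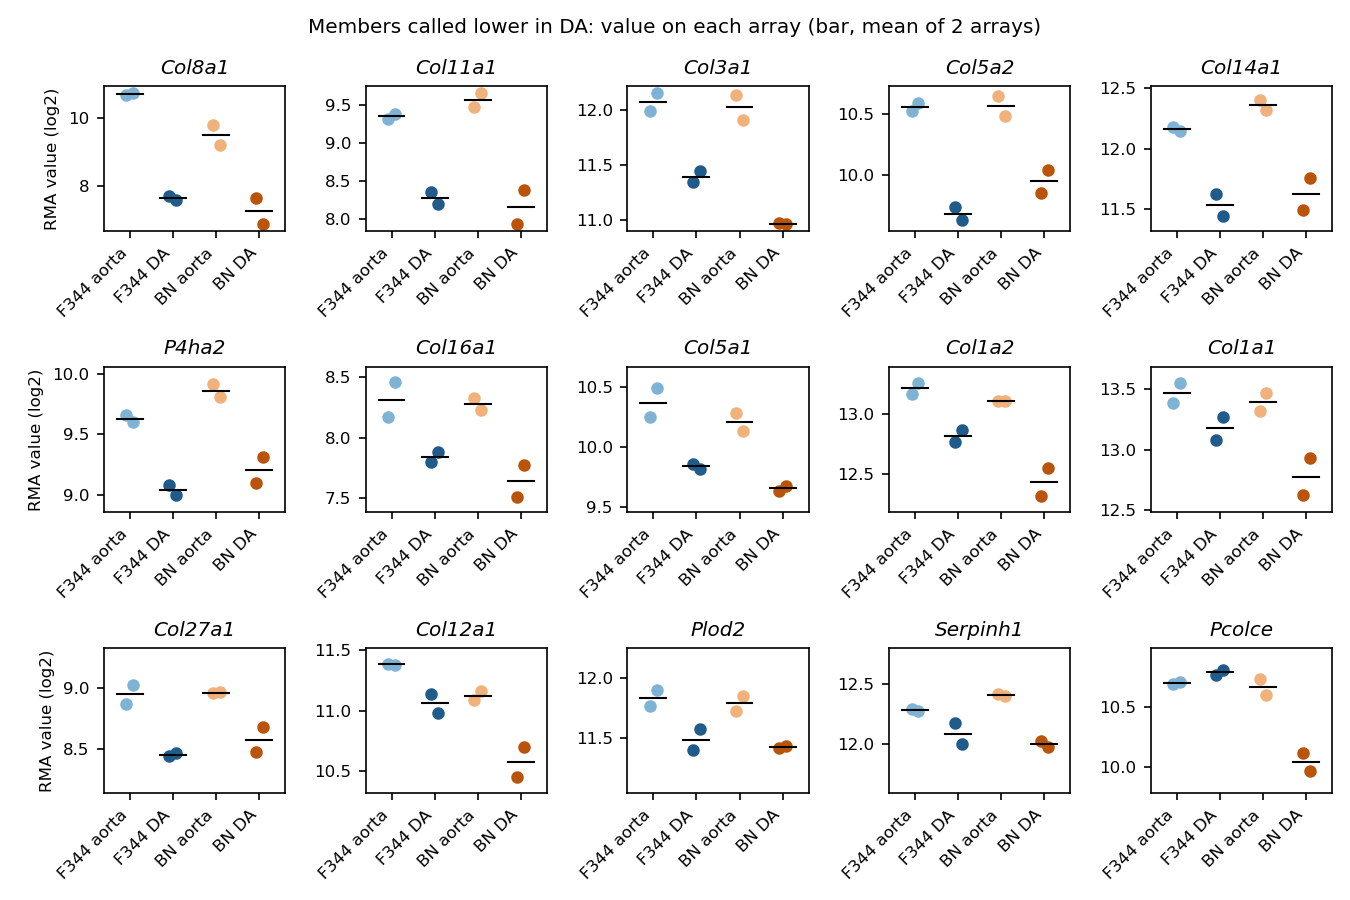
RMA values (log2) on each of the 8 arrays for the 15 members called lower in DA in at least 1 tissue comparison. Points are arrays, bars are means of 2 arrays, and the scale differs between panels; Col8a1 has the widest gap between aorta (9.21 to 10.75) and DA (6.89 to 7.70), and Pcolce is low in BN DA alone.

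Of the 6 members called lower in both strains, 4 have a promoter window in the RefSeq table (build GRCr8), and these are shown because the genes moved together. Each window is the 250 bases before the annotated start, printed 5′ to 3′ on the gene's strand: chr11:56246532-56246781 on the plus strand for Col8a1, chr2:204508886-204509135 on the plus strand for Col11a1, chr9:55090152-55090401 on the minus strand for Col5a2 and chr10:38743644-38743893 on the plus strand for P4ha2. Capitals mark matches, on either strand and allowed to overlap, to any of 5 motifs. These were the letters TATAAA for the TATA box and CCAAT for the box of that name, the letters GGGCGG for the GC box, the palindrome GCCNNNGGC for factor AP-2, and the letters TGANTCA for factor AP-1.
Col8a1: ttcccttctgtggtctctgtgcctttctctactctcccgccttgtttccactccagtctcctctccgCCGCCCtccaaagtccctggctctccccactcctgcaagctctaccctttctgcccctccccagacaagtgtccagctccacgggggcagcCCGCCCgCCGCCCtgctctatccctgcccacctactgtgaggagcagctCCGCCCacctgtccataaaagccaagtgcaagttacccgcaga
Col11a1: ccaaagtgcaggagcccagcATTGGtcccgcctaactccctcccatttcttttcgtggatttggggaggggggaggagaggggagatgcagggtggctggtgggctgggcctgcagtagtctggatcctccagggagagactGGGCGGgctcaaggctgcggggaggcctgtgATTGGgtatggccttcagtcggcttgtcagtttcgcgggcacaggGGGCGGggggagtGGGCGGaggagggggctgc
Col5a2: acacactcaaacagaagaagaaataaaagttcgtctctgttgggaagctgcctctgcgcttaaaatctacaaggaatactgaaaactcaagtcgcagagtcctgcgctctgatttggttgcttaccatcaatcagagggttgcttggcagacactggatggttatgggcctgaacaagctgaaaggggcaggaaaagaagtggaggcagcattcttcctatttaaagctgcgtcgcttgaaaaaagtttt
P4ha2: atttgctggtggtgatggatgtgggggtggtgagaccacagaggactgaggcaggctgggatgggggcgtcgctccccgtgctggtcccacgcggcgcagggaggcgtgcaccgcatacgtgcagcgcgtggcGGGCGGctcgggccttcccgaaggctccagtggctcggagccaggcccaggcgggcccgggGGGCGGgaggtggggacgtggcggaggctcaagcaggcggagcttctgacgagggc

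The Col8a1 window held 4 GC boxes and no other match, Col11a1 held 3 GC boxes and 2 CCAAT boxes, P4ha2 held 2 GC boxes, and Col5a2 held none of the 5 motifs. Col5a2 also had the lowest GC content of the 4, 44.8%, against 62.0% for Col8a1, 65.6% for Col11a1 and 72.4% for P4ha2. Over all 28 members with a window, 18 (64.3%) held a GC box, against 30.5% of the 33469 windows in the table, and their median GC content was 64.2% against 51.2%. The AP-2 palindrome was in 8 windows (28.6%) against 12.6% of all windows, the CCAAT box in 7 (25.0%) against 34%, the TATA box in 4 (14.3%) against 12.9%, and the AP-1 site in 0 against 6.34%. These are matches of letters only, and the windows were not matched on GC content.

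The short-chain network gene Col8a1 (Entrez 304021) showed the largest tissue difference of the 34 in each strain. Its values were 7.70 and 7.59 on the F344 DA arrays and 10.68 and 10.75 on the F344 aorta arrays, and 7.66 and 6.89 in BN DA against 9.81 and 9.21 in BN aorta. Every DA array lay below every aorta array by more than 1 unit, and the BN replicates lay further apart than the F344 replicates in either vessel. The log2 difference averaged over strains was -2.65 ± 0.18 SE, a 6.29-fold lower level in DA (limma adjusted p = 0.000111). In F344 alone it was -3.07 ± 0.26 (8.42-fold, limma adjusted p = 0.000407). In BN alone it was -2.23 ± 0.26 (limma adjusted p = 0.00483, and between 0.00066 and 0.0655 over the alternatives). The other member of this class, Col10a1, a gene of hypertrophic cartilage, was dim in all groups and was not called, with differences of -0.05 in F344 and -0.33 in BN.

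Type I collagen, the main fibrillar collagen, differed less. Col1a1 (Entrez 29393) read 13.08 and 13.27 (F344) and 12.62 and 12.93 (BN) on the DA arrays, and 13.39 and 13.55 (F344) and 13.32 and 13.47 (BN) on the aorta arrays. DA and aorta did not overlap in either strain, but the difference passed only in the average over strains (-0.46 ± 0.11 SE, 1.37-fold, limma adjusted p = 0.0177). The call was lost without F344 DA replicate 1, F344 aorta replicate 2 or BN aorta replicate 2 and after centring on brighter genes (highest adjusted p = 0.111). Its partner chain Col1a2 (Entrez 84352) read 12.77 and 12.87 (F344) and 12.32 and 12.55 (BN) on the DA arrays, and 13.17 and 13.26 (F344) and 13.11 on both BN arrays in aorta. The Col1a2 difference was -0.53 ± 0.09 in the average (limma adjusted p = 0.00425), and it passed in BN (-0.67 ± 0.13, adjusted p = 0.0366) and not in F344 (-0.40 ± 0.13, adjusted p = 0.0717).

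Col3a1 (Entrez 84032), whose type III homotrimer gives extensible vessels their thin fibrils, was at 11.34 and 11.44 in F344 DA and 11.99 and 12.16 in F344 aorta. In BN it was at 10.97 and 10.96 in DA and 12.14 and 11.91 in aorta. All 4 DA arrays were below all 4 aorta arrays, and the BN DA arrays were the lowest of all. The log2 difference was -0.69 ± 0.13 SE in F344 (1.61-fold, limma adjusted p = 0.00942) and -1.05 ± 0.13 in BN (2.08-fold, limma adjusted p = 0.00732). The interaction, BN difference minus F344 difference, was -0.37 ± 0.19 and did not pass (limma adjusted p = 0.561).

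Chains of the fibril-nucleating types V and XI were also lower. Col11a1 (Entrez 25654), better known from cartilage, had F344 values of 8.36 and 8.20 in DA against 9.32 and 9.38 in aorta, and BN values of 7.94 and 8.39 against 9.47 and 9.66. The vessels did not overlap, and the averaged difference was -1.24 ± 0.12 SE (2.35-fold, limma adjusted p = 0.000337). Col11a2, the other type XI chain measured, was not called, with -0.08 ± 0.16 in F344 and -0.09 ± 0.16 in BN. The other cartilage-type chains were not called in the main fit either, with averaged differences of -0.16 for Col2a1, -0.002 for Col9a1 and -0.31 for Col9a2. Col9a2 passed with the replicate number as a block (limma adjusted p = 0.0396) and without BN DA replicate 2 (-0.41).

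Col5a2 (Entrez 85250) read 9.73 and 9.62 (F344) and 9.85 and 10.04 (BN) on the DA arrays, and 10.53 and 10.59 (F344) and 10.65 and 10.49 (BN) on the aorta arrays. It was 1.84-fold lower in F344 DA (-0.88 ± 0.13 SE, limma adjusted p = 0.00306) and 1.54-fold lower in BN DA (-0.63 ± 0.13, adjusted p = 0.0487), and the BN call was lost in 11 of 20 alternative settings. Col5a1 (Entrez 85490) had F344 values of 9.86 and 9.82 in DA against 10.25 and 10.49 in aorta, and BN values of 9.64 and 9.68 against 10.28 and 10.13. Its difference was alike in size in both strains, -0.53 ± 0.13 in F344 and -0.55 ± 0.13 in BN, with an interaction of -0.02 ± 0.18. Averaged over strains it passed (-0.54 ± 0.09, limma adjusted p = 0.00449). Col5a3 was not called (averaged difference -0.20 ± 0.13), and its BN arrays overlapped between vessels.

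Col27a1 (Entrez 298101), a fibrillar chain of cartilage and developing tissues, read 8.44 and 8.46 (F344) and 8.47 and 8.68 (BN) on the DA arrays, and 8.87 and 9.03 (F344) and 8.96 and 8.97 (BN) on the aorta arrays. The averaged difference was -0.45 ± 0.09 SE (1.36-fold, limma adjusted p = 0.00963). This call was lost after repeated quantile normalization, cyclic loess or centring on brighter genes and without F344 aorta replicate 2 (highest adjusted p = 0.0673). Of the 10 fibrillar chains, the 3 not called in any tissue comparison were Col2a1, Col5a3 and Col11a2.

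**Figure D2:**
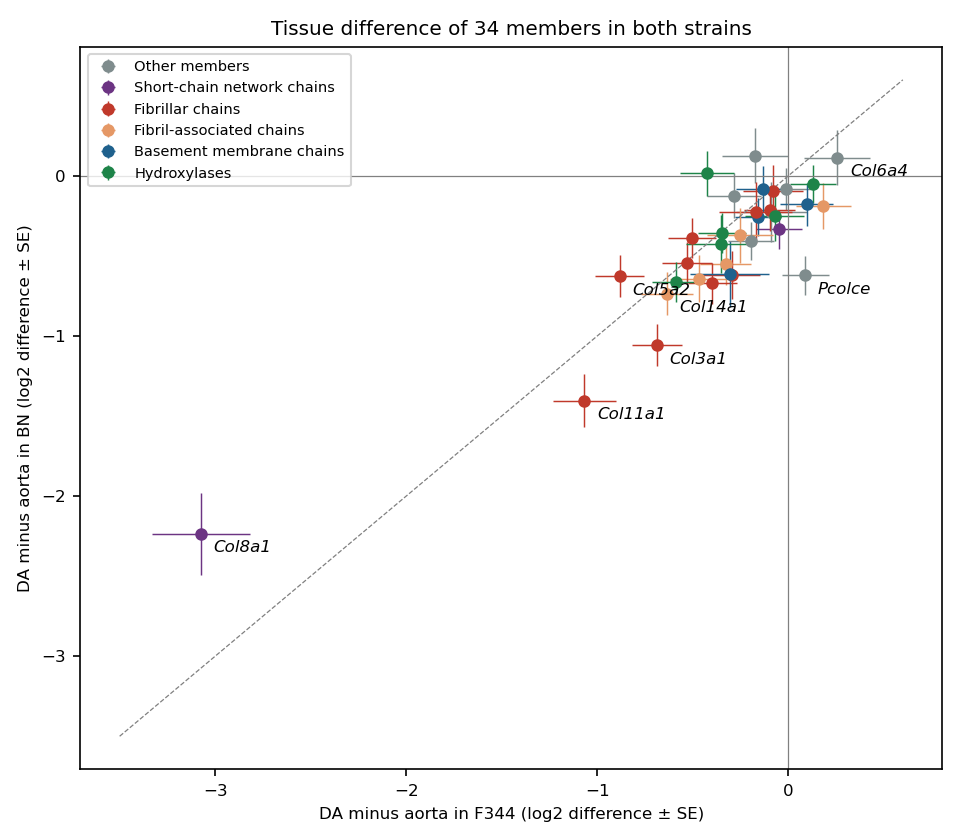
Log2 difference DA minus aorta in F344 (x axis) and in BN (y axis) for each of the 34 members, with standard errors from limma and colours by class. The dashed line marks equal differences; Col8a1, Col11a1 and Col3a1 lie furthest below 0 in BN, and Pcolce lies below 0 in BN (-0.62) but not in F344 (0.09).

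Among the fibril-associated chains, Col14a1 (Entrez 314981), which binds the surface of interstitial fibrils, differed most. It had F344 values of 11.62 and 11.44 in DA against 12.18 and 12.15 in aorta, and BN values of 11.49 and 11.76 against 12.40 and 12.32. The difference was -0.64 ± 0.14 SE in F344 (limma adjusted p = 0.0151) and -0.74 ± 0.14 in BN (adjusted p = 0.0338), and the averaged call held in all 19 alternative settings. Col16a1 (Entrez 366474) read 7.80 and 7.88 (F344) and 7.51 and 7.77 (BN) on the DA arrays, and 8.17 and 8.46 (F344) and 8.33 and 8.23 (BN) on the aorta arrays. For Col16a1 only the average passed (-0.56 ± 0.10, limma adjusted p = 0.00676), and it too held in all 19 settings.

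Col12a1 (Entrez 25683), a chain found in tissues under mechanical load, separated the groups by strain as well as by vessel. Its DA values were 11.14 and 10.98 (F344) and 10.45 and 10.70 (BN), and its aorta values 11.39 and 11.38 (F344) and 11.09 and 11.16 (BN). F344 DA and BN aorta overlapped, and BN DA was lowest. The averaged tissue difference was -0.44 ± 0.09 SE (limma adjusted p = 0.0128), and was not called without F344 DA replicate 2, without either F344 aorta array or after centring on brighter genes. The strain difference in DA was -0.49 ± 0.13 and did not pass (limma adjusted p = 0.0693).

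The 4 basement membrane chains were not called in any comparison of the main fit. With the replicate number as a block, Col4a1 was called lower in DA in the average (-0.46, limma adjusted p = 0.0297). Col4a1 (Entrez 290905), a chain of all basement membranes, had F344 values of 9.77 and 9.50 in DA against 9.83 and 10.06 in aorta, and BN values of 9.25 and 8.80 against 9.87 and 9.40. DA and aorta did not overlap within a strain, while F344 DA replicate 1 lay above BN aorta replicate 2, and the averaged difference of -0.46 ± 0.14 SE missed the threshold (limma adjusted p = 0.06). It passed without BN DA replicate 1 (-0.57, limma adjusted p = 0.0149) or BN aorta replicate 2 (-0.58, adjusted p = 0.0355). Without BN DA replicate 1 its strain difference also passed, in DA (-0.84, limma adjusted p = 0.0457) and averaged over tissues (-0.57, adjusted p = 0.0362). Col4a3, Col4a4 and Col7a1, the last of which forms anchoring fibrils under epithelia, had averaged differences from -0.21 to -0.04. The transmembrane chains Col13a1, Col17a1 and Col23a1 lay between -0.16 and -0.02, and Col6a4 was at 0.19.

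Of the 9 enzymes and partners 3 were called lower in the average over strains, P4ha2, Plod2 and Serpinh1. Their median averaged difference was -0.26, against -0.31 for the 25 chains. P4ha2 (Entrez 360526), a catalytic subunit of prolyl 4-hydroxylase, read 9.08 and 9.0 (F344) and 9.10 and 9.31 (BN) on the DA arrays, and 9.66 and 9.60 (F344) and 9.92 and 9.81 (BN) on the aorta arrays. It was called lower in DA in both strains, by -0.59 ± 0.13 SE in F344 (limma adjusted p = 0.0149) and -0.66 ± 0.13 in BN (adjusted p = 0.0366). The averaged call (-0.62 ± 0.09, 1.54-fold) held in all 19 settings.

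The other catalytic subunits were not called. P4ha1 had F344 values of 10.42 and 10.45 in DA against 10.28 and 10.34 in aorta, and BN values of 10.55 and 10.37 against 10.48 and 10.54, a difference of 0.13 ± 0.12 SE in F344 and -0.05 ± 0.12 in BN. P4ha3 was at 10.81 and 10.77 in F344 DA against 11.34 and 11.09 in F344 aorta (-0.43 ± 0.14), while its BN arrays overlapped, at 11.05 and 10.86 in DA and 11.04 and 10.83 in aorta (0.02 ± 0.14). Neither P4ha3 difference passed in the main fit, and its interaction was 0.44 ± 0.20 (limma adjusted p = 0.515). The F344 difference of P4ha3 passed with array weights (limma adjusted p = 0.028), with the replicate number as a block (adjusted p = 0.0295) and in a fit with the F344 arrays alone (adjusted p = 0.0409).

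Of the lysyl hydroxylases, Plod2 (Entrez 300901), which hydroxylates the telopeptides that form stable crosslinks, read 11.40 and 11.58 (F344) and 11.42 and 11.44 (BN) on the DA arrays, and 11.77 and 11.90 (F344) and 11.73 and 11.85 (BN) on the aorta arrays. It was called in the average only (-0.35 ± 0.09 SE, limma adjusted p = 0.0259). Plod3 (-0.39 ± 0.13) and Plod1 (-0.16 ± 0.11) did not pass in the main fit. Plod3 passed with the replicate number as a block (limma adjusted p = 0.0165), and also without F344 DA replicate 1 (-0.50) or BN DA replicate 1 (-0.47). The chaperone gene Serpinh1 (Entrez 29345) had F344 values of 12.18 and 12 in DA against 12.29 and 12.28 in aorta, and BN values of 12.03 and 11.98 against 12.42 and 12.40. Its averaged difference of -0.30 ± 0.08 passed narrowly (limma adjusted p = 0.04). The Plod2 call was lost in 6 and the Serpinh1 call in 9 of 19 alternative settings, among them centring on brighter genes and leaving out F344 DA replicate 1, either F344 aorta array or either BN aorta array.

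Strain was compared within each vessel. In DA, 1 member was called lower in BN than in F344 and 0 higher (2.1% and 2.43% of all genes, 4.53% in either direction), a share of 2.94%, close to the background. At an unadjusted p under 0.05, 6 of the 34 members were lower and 0 higher, beside 3301 of all 14506 genes in either direction. The median difference was -0.13, against 0 over all genes, and 25 of 34 members were below 0, against 50.5% of all genes. On 14 members both BN DA arrays lay below both F344 DA arrays and on 5 above, against 24.3% and 25.9% of all genes. In aorta 0 members were called lower and 0 higher (0.0758% and 0.0827% of all genes, 0.159% in either direction). The aorta arrays did not overlap on 6 members lower and 7 higher in BN, against 17.8% and 17.9% of all genes. Only 1 member, Col8a1, had an unadjusted p under 0.05 there, beside 757 of all 14506 genes.

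The member called was Pcolce (Entrez 29569), which encodes a glycoprotein that speeds the removal of the C-propeptide from fibrillar procollagens. It read 10.77 and 10.81 (F344) and 10.12 and 9.97 (BN) on the DA arrays, and 10.69 and 10.71 (F344) and 10.73 and 10.60 (BN) on the aorta arrays. The BN DA arrays were below the other 6, which lay between 10.60 and 10.81. BN DA was 1.68-fold lower than F344 DA (-0.75 ± 0.12 SE, limma adjusted p = 0.0169) and 1.54-fold lower than BN aorta (-0.62 ± 0.12, adjusted p = 0.0406). In the aorta the strains differed by -0.04 ± 0.12. The strain call was lost without either F344 DA array and in a fit with the DA arrays alone (highest adjusted p = 0.143), and the tissue call in BN in 10 of 20 settings. Averaged over tissues, Pcolce was the 1 member called lower in BN and 0 were higher (1.02% and 1.63% of all genes, 2.65% in either direction; -0.39 ± 0.09, limma adjusted p = 0.0493), a call lost without 7 of the 8 arrays in turn, all but BN DA replicate 1. On 0 members did all 4 BN arrays lie below or above all 4 F344 arrays, against 1.84% and 4.3% of all genes.

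Its promoter window, at chr12:24720722-24720971 on the plus strand (GRCr8), is given because Pcolce alone was called between strains. Of the 5 motifs it held 1 GC box.
Pcolce: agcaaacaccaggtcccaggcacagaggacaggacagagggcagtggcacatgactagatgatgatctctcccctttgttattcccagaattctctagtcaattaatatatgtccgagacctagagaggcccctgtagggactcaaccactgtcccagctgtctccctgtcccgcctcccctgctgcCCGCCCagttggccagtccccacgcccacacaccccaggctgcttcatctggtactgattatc

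Bmp1, the C-proteinase that Pcolce enhances, had F344 values of 10.42 and 10.26 in DA against 10.74 and 10.51 in aorta, and BN values of 10.47 and 10.56 against 10.74 and 10.53, a strain difference in DA of 0.17 ± 0.14 SE that was not called. Col4a1 (-0.61 ± 0.20), Col12a1 (-0.49 ± 0.13), Col3a1 (-0.42 ± 0.13), Col1a1 (-0.40 ± 0.15) and Col1a2 (-0.39 ± 0.13) had the next largest strain differences in DA. Each had both BN DA arrays below both F344 DA arrays, and none passed (limma adjusted p from 0.0693 to 0.151). Col5a2 had the opposite sign, 0.27 ± 0.13, and was not called.

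**Figure D3:**
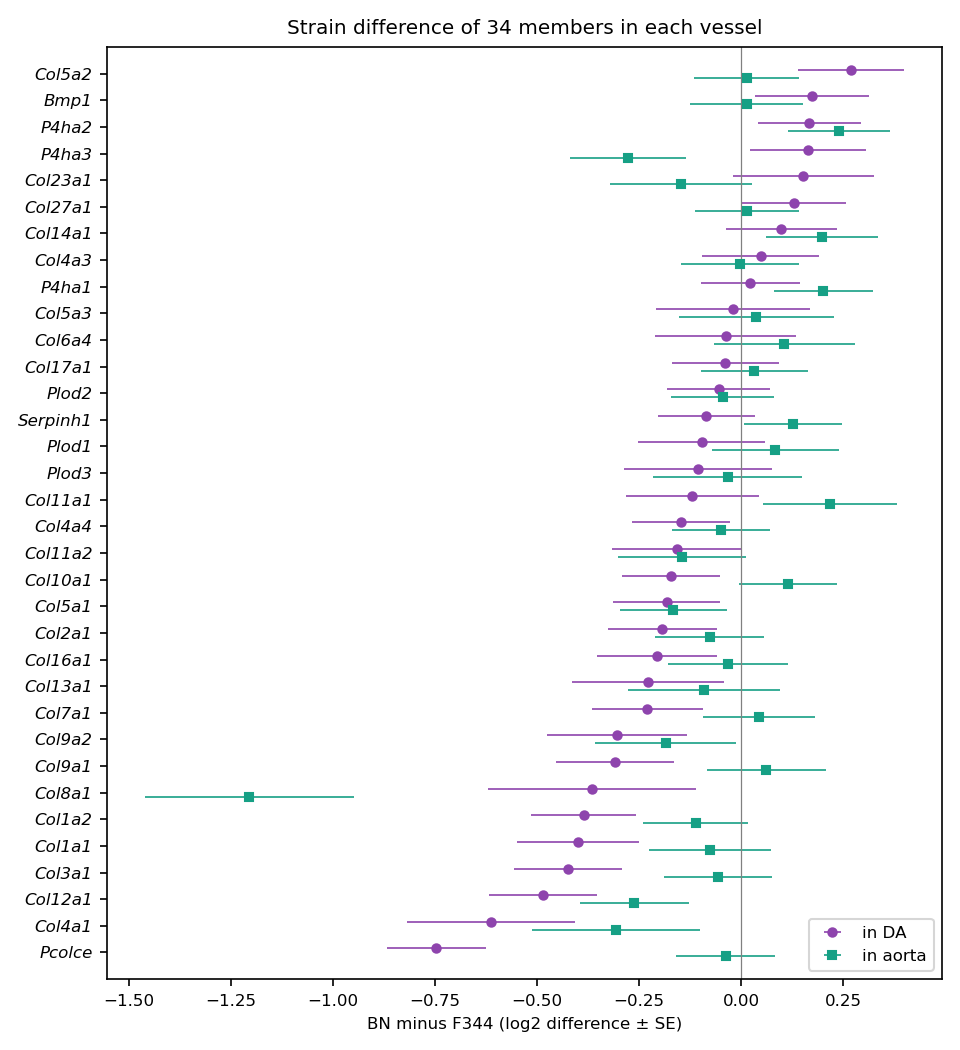
Log2 difference BN minus F344 with standard errors for each of the 34 members, in DA (circles) and in aorta (squares), ordered by the difference in DA. Pcolce is lowest in DA at -0.75 with -0.04 in aorta, and Col8a1 has the widest difference in aorta, -1.20.

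In the aorta Col8a1 was 2.30-fold lower in BN than in F344, with no overlap between the strains (-1.20 ± 0.26 SE), but did not pass over all genes (limma adjusted p = 0.239). It passed in a fit with the aorta arrays alone (limma adjusted p = 0.0266), with array weights (adjusted p = 0.039) and without either BN DA array. The difference was -1.20 in each of these, and only its standard error or the adjustment changed. The aorta difference of Col8a1 was not called under the 3 other scalings or when any aorta array was left out. Averaged over tissues its strain difference was -0.78 ± 0.18 (limma adjusted p = 0.0551), and it passed in 9 of 19 alternative settings, among them without BN DA replicate 1 (-0.98, adjusted p = 0.00472) or replicate 2 (-0.59, adjusted p = 0.0411) and under each of the 3 other scalings. Pcolce, called in the same contrast, was not called in 8 of the 19. For the dependence of the tissue difference on strain, limma called 0 members (0% of all genes). At an unadjusted p under 0.05 there were 2 members, Pcolce (-0.71 ± 0.17) and Col8a1 (0.84 ± 0.36), beside 1403 of all 14506 genes. The smallest adjusted p among members was 0.284.

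Other genes of collagen biology, from lists chosen by function, are given beside the shares of all genes called, which were 14% in F344, 1.81% in BN and 16.6% averaged over strains, in either direction. Of 15 genes of hydroxylation, folding and secretion, 1 was called higher and 1 lower in F344 DA, the prolyl 3-hydroxylase gene P3h2 (0.88 ± 0.16 SE) and the folding gene Fkbp14 (-0.59 ± 0.11), and 0 in BN. In the average 4 were lower, Fkbp14 (-0.50), P3h3 (-0.44), Colgalt1 (-0.37) and P3h1 (-0.31), and P3h2 was higher (0.80). The F344 count is near the share of all genes. P3h2 read 9.24 and 9.50 (F344) and 9.45 and 9.54 (BN) on the DA arrays, and 8.46 and 8.53 (F344) and 8.59 and 8.97 (BN) on the aorta arrays, above the aorta on all 4 DA arrays. Of 6 other procollagen proteinase genes, 2 were called higher in F344 DA, Adamts3 (0.73) and Tll1 (0.69), 1 was called lower, the N-proteinase gene Adamts2 (-0.67), and 0 were called in BN. The same 3 were called in the average. Of 6 crosslinking genes 2 were called lower in F344 DA, Loxl1 (-0.96 ± 0.15) and Lox (-0.45 ± 0.12), and 1 in BN DA, Loxl1 (-0.87 ± 0.15), and in the average 3 were lower, Loxl1 (-0.91), Loxl3 (-0.41) and Lox (-0.33), with list medians of -0.30 and -0.27 beside -0.04 and 0 for all genes.

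Of 13 fibril-associated proteoglycan and glycoprotein genes 2 were called higher and 3 lower in F344 DA, and 1, the small proteoglycan gene Epyc (1.85), was called higher in BN. In F344 Epyc (2.43) and Fmod (1.12) were higher and Postn (-1.88), Omd (-1.35) and Aspn (-0.80) lower, and the list median was -0.06 in each strain. The average called the same 5. Of 9 collagen receptor genes 0 were called in F344 and 1 in BN, the integrin gene Itga2 (-0.79 ± 0.14), and in the average 3 were lower, Itga11 (-0.52), Itga2 (-0.49) and Mrc2 (-0.39), and 0 higher. Of 13 genes of collagen breakdown, Fap, a protease of activated fibroblasts, was called lower in DA in both strains (-1.45 and -1.38), Timp3 was lower (-0.74) and Mmp2 (gelatinase A) higher (0.58) in F344, and Mmp16 was higher in BN (0.91). In the average Fap was lower (-1.41) and Mmp16 higher (0.58). Between strains in DA, Postn (1.65) and Timp3 (0.87) were called higher and Epyc (-1.08) and Mmp2 (-0.72) lower in BN. Fap was between 7.25 and 7.50 on the DA arrays and between 8.74 and 8.78 on the aorta arrays.

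Markers of several cell types moved with the vessel, and their part in the collagen differences was not tested. For these and the following marker counts, the shares of all genes called in either direction were 14% in F344, 1.81% in BN and 16.6% in the average. Of 10 adventitial fibroblast markers, a source of interstitial collagen, 3 were called lower and 1 higher in F344 DA and 2 lower in BN DA. Pdgfra was lower in both (-1.08 and -1.05), as was Scara5 (-1.06 and -0.77), and Pi16 was lower in F344 (-1.34). Dpep1 went the other way and differed most, higher in F344 DA by 1.94 and in the average over strains by 1.60. The array means of this list ranged from 9.65 to 9.80 in F344 DA, 9.90 to 10.07 in F344 aorta, 9.81 to 9.84 in BN DA and 9.87 to 9.95 in BN aorta. Of 8 smooth muscle markers 2 were called higher in F344 DA (Des and Cnn1), 0 in BN and 3 in the average (also Tagln), with array means of 11.67 to 11.83 in F344 DA, 11.33 to 11.38 in F344 aorta, 11.52 to 11.73 in BN DA and 11.27 to 11.49 in BN aorta. Macrophage markers were called lower in F344 DA for 3 of 11 genes, in BN for 0 and in the average for 4, with array means of 7.07 to 7.23 in F344 DA, 7.53 to 7.77 in F344 aorta, 7.47 to 7.64 in BN DA and 7.89 to 7.98 in BN aorta.

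Blood endothelial markers, from cells that make type IV and type VIII collagen, were called lower in F344 DA for 6 of 11 genes, for 0 in BN and for 4 in the average. Their array means were 8.47 to 8.54 in F344 DA and 8.99 to 9.10 in F344 aorta, but 8.82 to 9.04 in BN DA and 8.88 to 8.94 in BN aorta. Lymphatic endothelial markers were called higher in BN DA than in F344 DA for 4 of 6 genes, beside 2.43% of all genes. Their array means were 8.24 on both BN DA arrays and 6.94 and 7.04 in F344 DA. A link to the Pcolce difference between the same groups was not tested. Of 9 chondrocyte markers 1 was called higher in BN DA, Acan, at 9.12 and 10.48 against 7.51 to 8.13 on the other 6 arrays, while Col2a1 was not called in any comparison. Of 8 epithelial and mesothelial markers 2 were called lower in F344 DA, Krt8 (-1.80) and Krt18 (-1.36), and 1 higher, Epcam (0.81), and in BN DA Krt8 alone was called, lower (-0.88), with array means of this list between 6.43 and 6.92 in all groups. Array means of the Schwann cell list lay between 6.72 and 7.20 and those of the cardiomyocyte list between 6.56 and 6.79 on 7 arrays and at 7.16 on BN DA replicate 2. Neither list had a gene called in a tissue comparison within a strain. Averaged over strains, 1 of 8 Schwann cell genes was called higher in DA, Cryab (0.71), and 0 of 9 cardiomyocyte genes were called.

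**Figure D4:**
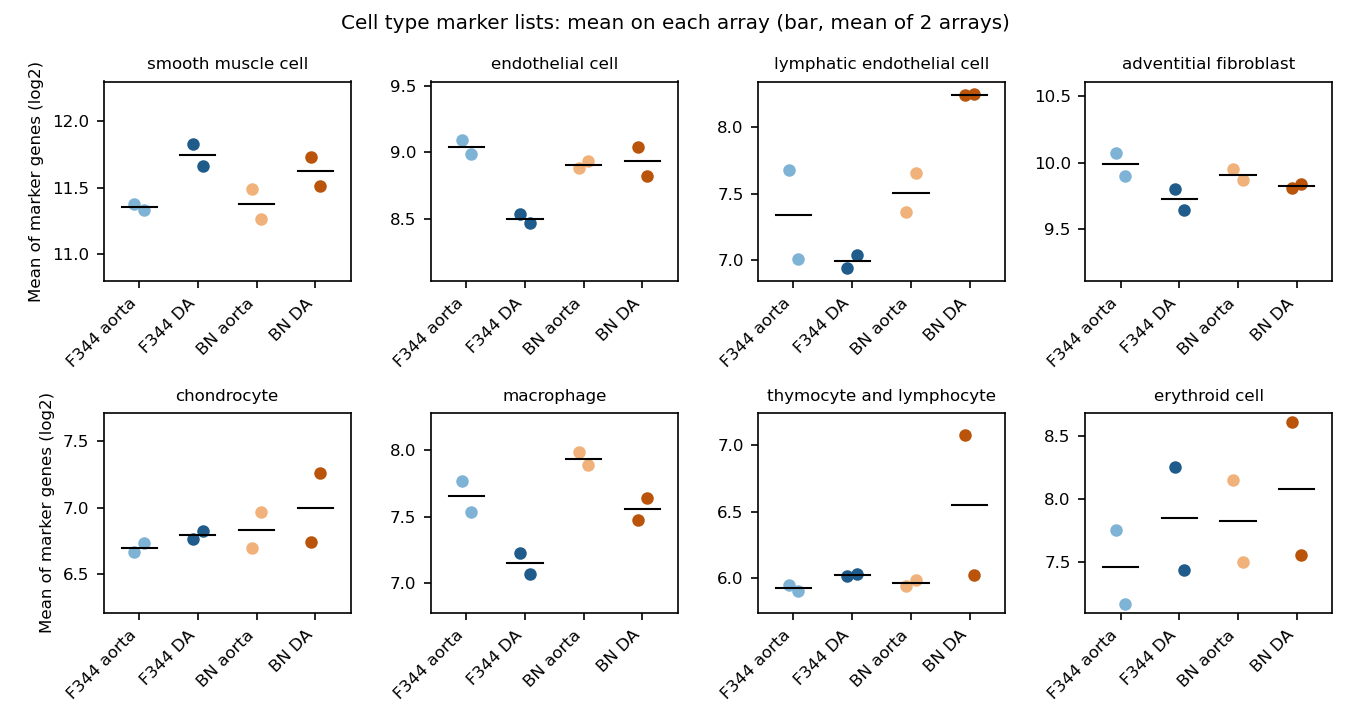
Mean of the marker genes of 8 cell types on each array (log2), with bars for the mean of 2 arrays. Endothelial markers are low in F344 DA, lymphatic endothelial markers are high in BN DA, thymocyte and lymphocyte markers are high on BN DA replicate 1 (7.07, against 5.91 to 6.03 elsewhere), and erythroid markers are higher on replicate 1 in each group.

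Both BN DA arrays stood apart in markers of other cells, and the part of these in the results was not tested. Thymocyte and lymphocyte markers were high on BN DA replicate 1. Some genes of heart muscle and cartilage were high on BN DA replicate 2, with Tnnt2 at 9.24 (6.77 to 7.47 on the other arrays), Actc1 at 9.71 (7.45 to 7.98) and Cnmd at 8.47 (6.37 to 7.30). Other genes of the same lists were not high on that array. Myh6 (6.51), Myh7 (6.44), Tnni3 (6.29), Matn1 (6.57) and Matn4 (6.04) lay within or below the range of the other arrays. Without replicate 1 the tissue differences in BN were -2.62 for Col8a1, -1.18 for Col11a1 and -1.06 for Col3a1, and without replicate 2 they were -1.85, -1.63 and -1.05, each still called. The Pcolce strain difference in DA was -0.82 without replicate 1 and -0.67 without replicate 2, both still called, while its tissue difference in BN was not called without replicate 2 (-0.54, limma adjusted p = 0.0824).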

How the data were processed

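Each of 8 Affymetrix Rat Gene 1.0 ST arrays was hybridised with 150 ng of labelled total RNA. The deposited values are log2 values that the authors made with RMA, per the submitters' processing notes, and range from 1.07 to 14.15. For the version, any filter and the build, the sources used here give nothing. Values were used as deposited, and 0 columns of other samples were present. The platform annotation of 2016 gave 1 symbol for 15310 of 29215 probe sets, several for 323, and 13582 were not listed in it. The probe set with the highest mean stood for a gene (527 genes had more than 1), which left 14506 genes. All 34 members matched a RefSeq symbol.

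limma 3.58.1 (R 4.3.3) fitted 1 mean per group over all 8 arrays (4 residual and 5.25 prior degrees of freedom), with two-sided moderated tests, Benjamini-Hochberg adjustment over all genes and calls at an adjusted p under 0.05. The fit was tested on simulated data for DA minus aorta in F344. It recovered 74% of genes with a log2 change of 1 and 95% of those with a change of 2. Of its calls, 3.43% were unchanged genes. Changes smaller than 1 were not simulated. Averaged contrasts use the same arrays as the single ones. The number of arrays limits the precision.

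The members and lists were chosen with earlier results of these data known. By rule, array values are given for members called in any contrast or with a pairwise log2 difference of at least 1, and for other lists called genes only, at most 4 per list and contrast. Array values of Col4a1, P4ha1, P4ha3 and Bmp1, and the array values of P3h2 and Fap, were added after their values were seen, as were the names of P3h1, Aspn and the cell type marker genes. Alternatives covered variance moderation, a filter on dim genes, normalization, centring, probe set choice, weights per array, a block on replicate number, arrays of the compared groups only, a set without 1283 chemosensory genes, and leaving out each array. Promoter windows are RefSeq's (GRCr8), cut to the 250 bases before the start, and 28 of 34 members had one.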

Additional observations from a re-analysis of the deposited data

Results flagged for a closer look

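For 3 members the difference between groups had opposite signs, without overlap between the arrays compared, in the 2 strains or the 2 vessels. The share of all genes with this pattern was not counted, so the 3 cannot be set against a background. Lack of overlap in a single comparison was common over all genes. It held for 37.8% lower and 29.6% higher in F344 DA than aorta, and for 24.3% lower and 25.9% higher in BN than F344 DA. Pcolce was higher in DA than aorta in F344 (0.09) and lower in BN (-0.62), an interaction of -0.71 ± 0.17 SE with a limma adjusted p of 0.284. P4ha3 was higher in BN than F344 in DA (0.16) and lower in aorta (-0.28), an interaction of 0.44 with a limma adjusted p of 0.515. Col10a1 was lower in BN than F344 in DA (-0.17) and higher in aorta (0.11), an interaction of -0.29 with a limma adjusted p of 0.627, and it was dim in all groups. None of the 3 interactions passed.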

How the results depend on the processing

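No called member changed direction in any of the 20 alternative settings run, and 12 of 32 calls held in all of them. Many settings left the log2 difference of a called member as it was, so they could not change its direction. Only the other scalings and leaving out an array of the compared groups could. In F344 the count of members lower in DA, 8, was 5 after repeated quantile normalization, 5 after cyclic loess, 4 after centring on brighter genes and 13 with array weights, and lay between 3 and 10 when 1 array was left out. In BN the count of 8 was 3 after centring, 3 with array weights and 0 with arrays of the compared groups only, and 0 to 10 with 1 array left out. Averaged over strains, 14 became 9 after centring and 9 to 17 with 1 array left out. Between strains in DA, 1 became 2 with cyclic loess and 0 with arrays of the compared groups only, and 0 to 2 with 1 array left out. In aorta, 0 became 1 with array weights and 1 with arrays of the compared groups only, and 0 to 1 with 1 array left out. Averaged over tissues, 1 became 2 with a mean-variance trend, without dim genes, after repeated quantile normalization, after centring and with array weights, 3 with cyclic loess and 0 with every probe set tested, and 0 to 3 with 1 array left out. The cause was not tested. Leaving out an array leaves a group with 1 array, assumed to vary like the others. Averaged contrasts and the interaction have no value from arrays of the compared groups only.

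The main fit took same-numbered arrays of different groups as unrelated, and the labels do not say what a replicate number stands for. Deviations of same-numbered arrays correlated positively in all 6 pairs of groups, between 0.03 and 0.52, highest for BN DA with BN aorta. Erythroid markers were higher on replicate 1 in each group. A block on replicate number called 3218 of all genes in the average over strains, against 2403 without it. Between strains in DA it called 1583, against 657. What the replicate numbers share was not tested. With the replicate number as a block, the members called lower in DA were 11 in F344, 10 in BN and 18 in the average, and those lower in BN were 2 in DA, 0 in aorta and 3 averaged over tissues. The block also called Col4a1 lower in DA in the average (-0.46, limma adjusted p = 0.0297) and Col8a1 lower in BN averaged over tissues (adjusted p = 0.0212).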
